A study of Mus musculus with 13 samples.

Results

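The 43 genes described here encode proteins that mend damaged DNA, and they were picked by gene name and pathway. By pathway the list held 14 genes of homologous recombination, 6 of the Fanconi anaemia pathway, 3 of mismatch repair, 8 of nucleotide excision repair, 7 of base excision and single-strand break repair and 5 of end joining. Of the 43 genes, 41 had a probe on the chip, with 73 probes among them. Xrcc2 and Fanca had no probe here. Rad51ap1, Fancg, Ercc2, Ogg1, Xrcc5 and Prkdc had probes that were not detected on any array, so that 35 genes were tested among 9787 genes tested in all.

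RNA was measured on 13 Illumina mouse BeadChip arrays, with 3 arrays of fertilized embryos cultured without aphidicolin (fertilized Aph-), 3 of fertilized embryos cultured with it (fertilized Aph+), 3 of Aph- embryos made by somatic cell nuclear transfer (SCNT Aph-), 1 of such embryos with the drug (SCNT Aph+), 1 of unfertilized MII oocytes and 2 of cumulus cells, the somatic cells that surround the oocyte and donated the transplanted nuclei. Per the labels the oocytes and cumulus cells were B6C3F1, the fertilization was in vitro, and the 3 arrays of an embryo group were untimed, 96 h and blastocyst (replicates 1, 2 and 3). The text of the study names C3H/HeN oocytes from young adult mice, C57Bl/6J cumulus cells and sperm, sperm injection and a common time for all embryos. Each embryo array was a pool of embryos with no genetic modification given for the arrays, the Aph- pools were taken whatever stage the embryos had reached, and the Aph+ embryos were arrested at the 1-cell stage by the drug, given from shortly after activation. Whether the pools of a group were cultured separately is not given in the sources used here, and the p-values cover the spread of these pools alone, which may be technical. The SCNT Aph+ and oocyte groups had 1 array each, which was assumed to vary like the others. The text of the study describes replicate arrays for every embryo group, and the intensity column taken as the SCNT Aph+ array carries a suffix that the sample's title lacks, so it was matched to its group by name.

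Aphidicolin blocks the polymerases that replicate DNA and fill repair gaps, and it stalls replication forks. Stalled or broken forks are met by homologous recombination, which copies the lost sequence from the sister chromatid, and by the Fanconi anaemia proteins, which also remove cross-links between strands. Mismatch repair corrects replication errors, nucleotide excision repair cuts out bulky lesions such as those left by ultraviolet light, base excision repair replaces damaged single bases, and end joining ligates broken ends without a template. The oocyte stores repair mRNAs and proteins for the first cleavages, before the embryo's genome takes over.

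The arrays differed in brightness and in the cells they held. Of the 35 repair genes, 31 were detected on each fertilized Aph- array, 28 to 30 on the SCNT Aph- arrays, 18 to 24 on the fertilized Aph+ arrays, 15 on the SCNT Aph+ array, 24 on the oocyte array, and 18 and 27 on the cumulus arrays (detected means a detection p under 0.01). Of all genes tested, 69.9% to 72.4% were detected on the fertilized Aph- arrays and 60.4% to 67.2% on the SCNT Aph- arrays. The share was 46.6% to 53.6% on the fertilized Aph+ arrays, 49.8% on the SCNT Aph+ array and 52.7% on the oocyte array. It was 53.7% and 73.5% on the cumulus arrays. Mean raw intensity was 116 to 129 on the fertilized Aph+ arrays and 89.8 on the SCNT Aph+ array, against 184 to 374 on the Aph- embryo arrays. Arrays of the fertilized Aph+ group correlated with each other at r = 0.845 to 0.851 over all genes, against 0.980 to 0.987 in the fertilized Aph- group and 0.971 to 0.974 in the SCNT Aph- group. The SCNT Aph+ array correlated at r = 0.869 and 0.859 with the cumulus arrays and at 0.631 with the oocyte array. With the fertilized Aph+ arrays r was 0.607 to 0.713, with the SCNT Aph- arrays 0.702 to 0.717 and with the fertilized Aph- arrays 0.713 to 0.728. The median SD of a repair gene was 0.51 in fertilized Aph+, 0.17 in fertilized Aph- and 0.23 in SCNT Aph- embryos on the log2 scale. Trophectoderm markers were detected as 7 or 8 of 8 on the Aph- embryo arrays and as 3 to 5 of 8 on the Aph+ arrays, among them 4 on the fertilized Aph+ array labelled blastocyst. Of 9 oocyte markers, 8 were detected on the oocyte array, 6 to 8 on the fertilized Aph+ arrays, 6 on the SCNT Aph+ array and 2 to 4 on the Aph- embryo arrays, and Mos, the kinase that holds the egg in metaphase, was detected on the oocyte array alone. Of 10 cumulus markers, 9 were detected on the SCNT Aph+ array (all but Has2), 9 and 10 on the cumulus arrays, 5 on the oocyte array, 2 to 5 on the fertilized Aph+ arrays and 2 on each Aph- embryo array. The mean log2 level of these cumulus markers was 8.57 on the SCNT Aph+ array, 8.50 and 8.55 on the cumulus arrays and 4.80 to 5.08 on the Aph- embryo arrays. What part cumulus RNA had in the values of the SCNT Aph+ array was not tested. In such pools fewer cells of a type and less RNA per cell cannot be told apart, and values are relative to the other RNA of the same array.

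**Figure D1:**
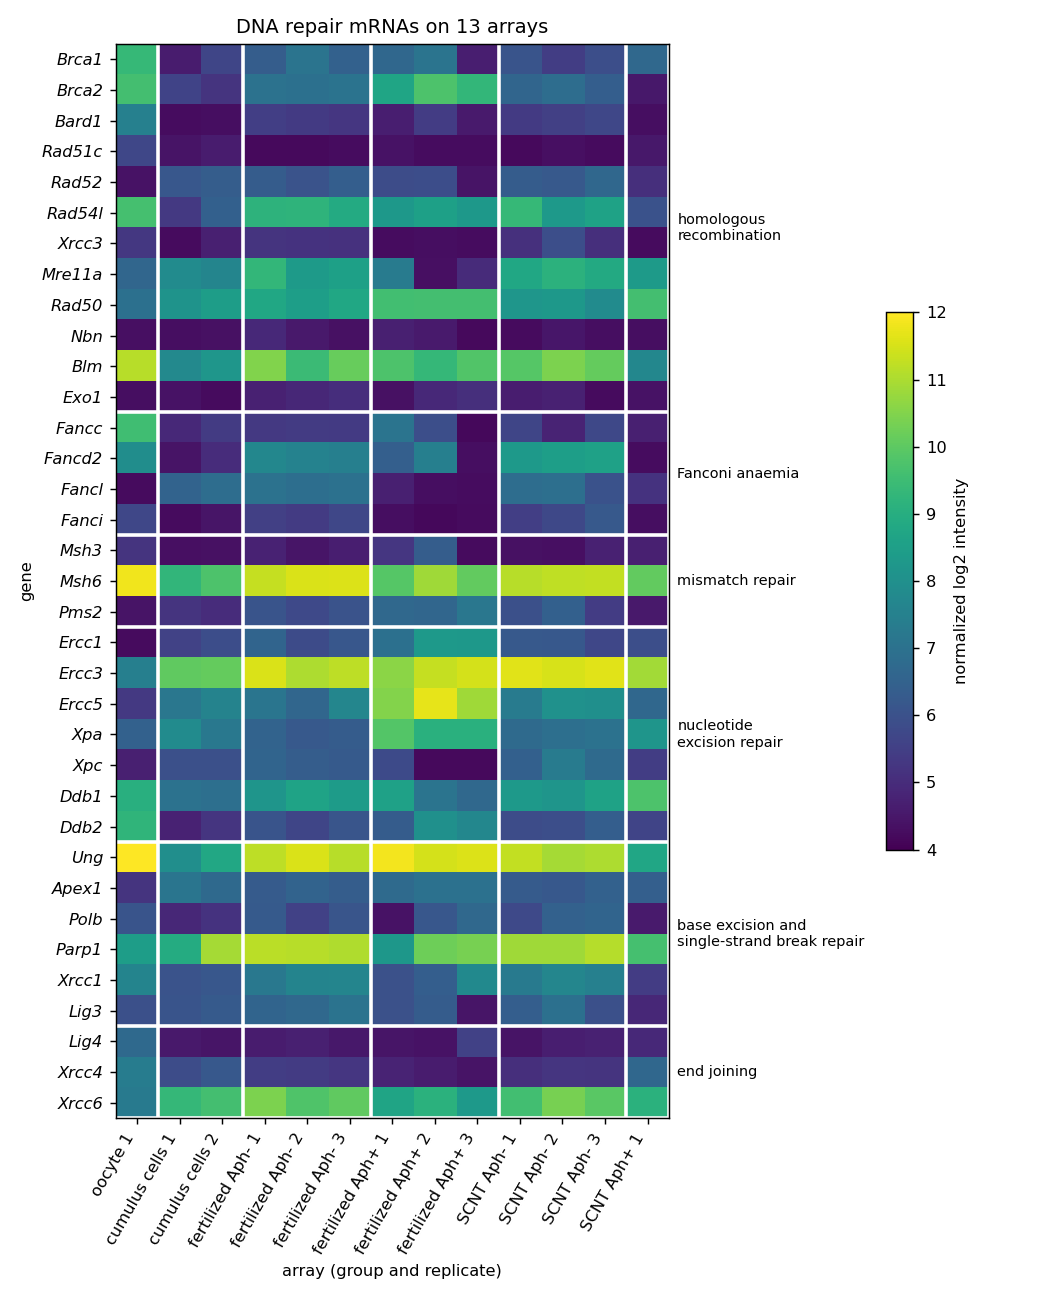
Normalized log2 intensity of the 35 tested repair genes (listed down the side by pathway) on the 13 arrays (grouped by sample type; colour scale in log2 units). The Aph- embryo arrays look alike within and between fertilized and SCNT embryos, whereas the 3 fertilized Aph+ arrays differ from each other for several genes, and the SCNT Aph+ array stands at 4.28 to 5.17 for the 4 Fanconi anaemia genes.

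The first question was how repair mRNAs differed when the first round of replication was blocked. In fertilized embryos 8 of the 35 repair genes were higher with Aph and 8 were lower at adjusted p under 0.05 (limma), where 19.1% of all genes tested were higher and 25.1% lower. The median difference was -0.38 on the log2 scale for the repair genes and -0.03 for all genes. Without fertilized Aph- replicate 2 the number of higher repair genes was 5. The 8 that rose were Brca2, Rad50, Pms2, Ercc1, Ercc5, Xpa, Ddb2 and Apex1, and the 8 that fell were Xrcc3, Mre11a, Fancl, Fanci, Msh6, Xpc, Xrcc4 and Xrcc6. In SCNT embryos 3 of the 35 were higher with Aph (Rad50, Xpa and Xrcc4) and 12 were lower (Brca2, Bard1, Rad54l, Xrcc3, Blm, Fancd2, Fancl, Fanci, Msh6, Pms2, Ung and Xrcc1), against 13.7% and 14.7% of all genes. The median was -1.11 for the repair genes and -0.10 for all genes in that comparison, which rests on the 1 SCNT Aph+ array. When arrays were scaled to their 75th percentile instead of quantile normalized, the SCNT counts became 4 higher and 7 lower.

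Between Aph- embryos, SCNT against fertilized, no repair gene was called in either direction (limma), where 0.163% of all genes were higher and 0.398% lower in SCNT embryos. At an unadjusted p under 0.05 there were 0 higher and 1 lower, Rad50, at -0.55 ± 0.19 (SE, adjusted p = 0.327). The 35 differences lay between -0.83 for Brca1 and 0.90 for Fancd2 with a median of -0.02. A fit of these groups alone called 1 repair gene higher, Fancd2 (adjusted p = 0.0298).

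**Figure D2:**
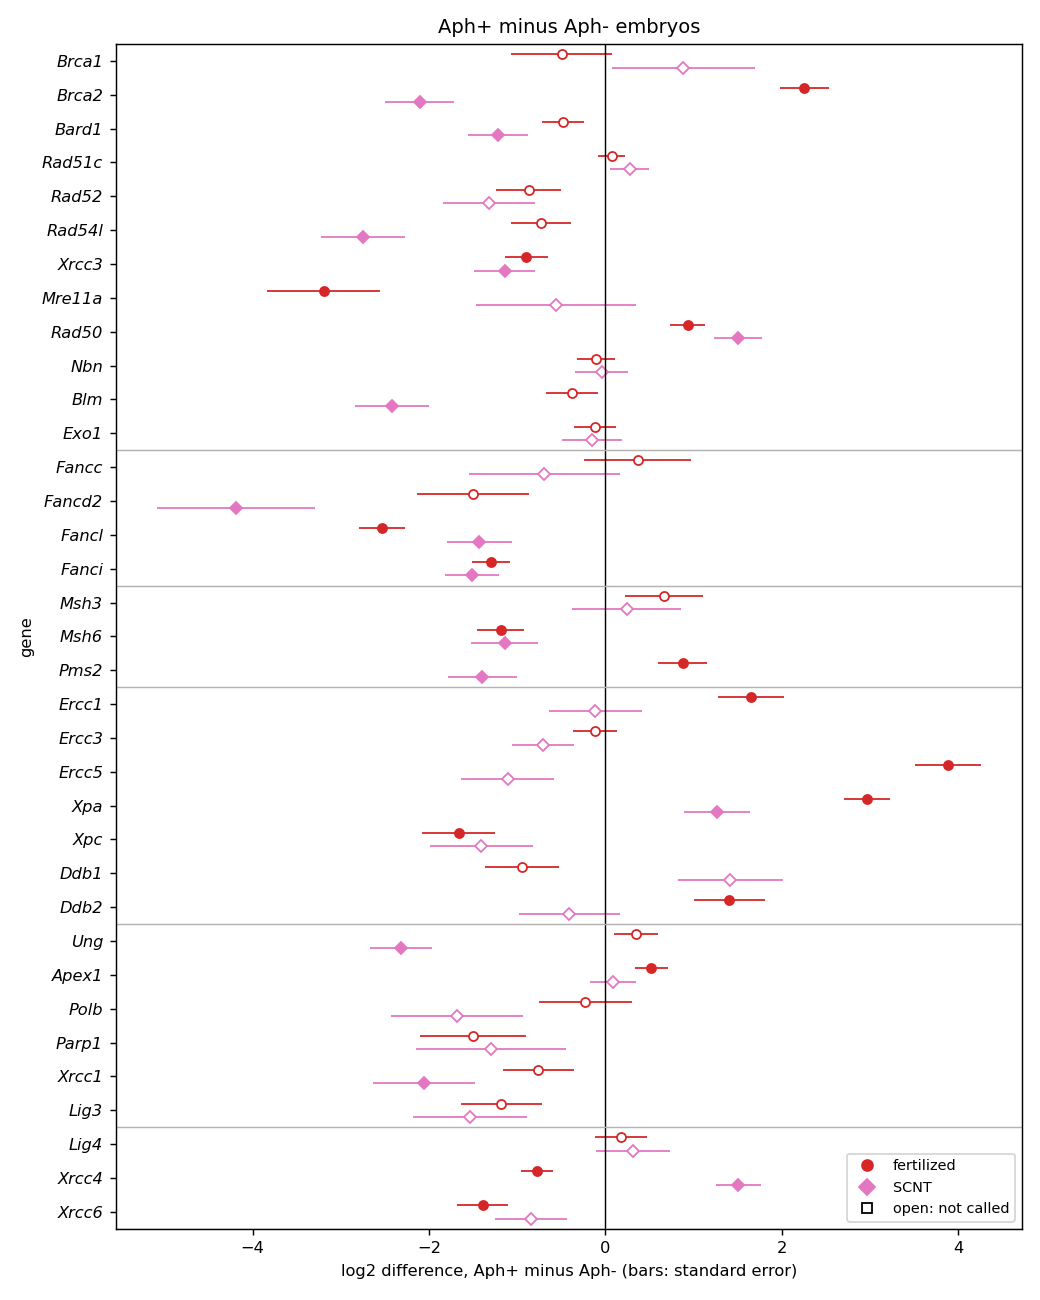
Log2 difference of Aph+ minus Aph- embryos for each of the 35 repair genes, in fertilized embryos (circles) and in SCNT embryos (diamonds), with bars of 1 standard error; filled symbols passed adjusted p under 0.05. Brca2, Pms2 and Xrcc4 have filled symbols on opposite sides of 0, and Ercc5 and Xpa lie furthest to the right among the circles.

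Nucleotide excision repair held the largest rises in fertilized embryos. Of its 7 tested genes 4 rose and 1 fell with Aph, against 19.1% and 25.1% of all genes, with a median of 1.40. In SCNT embryos 1 rose and 0 fell (limma, 2 and 1 at an unadjusted p under 0.05), with a median of -0.41, where 13.7% of all genes rose and 14.7% fell. The promoters of the 3 genes whose products make or place the incisions and that rose are printed here with that of Brca2, which among the 43 genes had the largest rise outside this pathway. Each is the 250 bases before the RefSeq start in GRCm38.p6, read 5′ to 3′ on the gene's strand, with matches to the searched motifs in capitals: Ercc5 at chr1:44147494-44147743 (plus strand), Xpa at chr4:46196312-46196561 (minus strand), Ercc1 at chr7:19344821-19345070 (plus strand) and Brca2 at chr5:150522371-150522620 (plus strand).
Ercc5: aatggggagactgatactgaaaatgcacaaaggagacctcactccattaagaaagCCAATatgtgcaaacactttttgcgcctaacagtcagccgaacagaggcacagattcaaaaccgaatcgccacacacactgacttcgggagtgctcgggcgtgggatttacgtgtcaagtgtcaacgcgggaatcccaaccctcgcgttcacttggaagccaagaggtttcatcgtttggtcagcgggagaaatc
Xpa: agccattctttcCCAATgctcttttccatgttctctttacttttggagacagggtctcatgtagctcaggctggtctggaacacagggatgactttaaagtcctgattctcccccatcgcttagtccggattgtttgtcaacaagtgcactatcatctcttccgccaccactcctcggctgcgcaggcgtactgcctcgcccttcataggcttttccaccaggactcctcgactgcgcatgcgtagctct
Ercc1: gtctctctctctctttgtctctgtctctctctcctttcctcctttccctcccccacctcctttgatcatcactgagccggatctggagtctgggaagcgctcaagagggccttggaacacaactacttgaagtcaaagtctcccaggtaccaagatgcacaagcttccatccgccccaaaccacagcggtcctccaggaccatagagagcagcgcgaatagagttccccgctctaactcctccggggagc
Brca2: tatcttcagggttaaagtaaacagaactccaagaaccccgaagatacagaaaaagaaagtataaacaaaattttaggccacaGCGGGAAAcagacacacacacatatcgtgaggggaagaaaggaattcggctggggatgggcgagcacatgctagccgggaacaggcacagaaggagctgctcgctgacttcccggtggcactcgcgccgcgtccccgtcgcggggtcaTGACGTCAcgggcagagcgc

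The letters searched, on both strands, do not overlap in these promoters. They were the E2F letters TTTGGCGC, TTTCGCGC, TTTCCCGC or TTTGCCGC, the CCAAT box CCAAT, and the cyclic AMP response element TGACGTCA. Of the repair genes 33 matched the RefSeq table, with 36 promoters. The E2F letters stood in 5 of the 36 (13.89%: Bard1, Brca2, Fancg, Msh3 and Xrcc6) and in 1.86% of the 32851 promoters of the table. CCAAT stood in 18 of the 36 (50%) against 33.85%, and TGACGTCA in 2 of the 36 (5.56%: Brca2 and Rad51c) against 1.55%. The Ercc5 and Xpa promoters held CCAAT 195 and 238 bases before the start. The Brca2 promoter held GCGGGAAA, an E2F match on the other strand, 168 bases before the start and TGACGTCA 20 bases before it, and the Ercc1 promoter held none of them. A match is a description of the letters only, and no motif stood in all 4 promoters.

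Ercc5 encodes the nuclease that cuts on the 3′ side of a lesion. Its normalized log2 intensity was 7.11, 6.65 and 7.67 on the fertilized Aph- arrays and 10.52, 11.71 and 10.86 on the fertilized Aph+ arrays. On the SCNT arrays it was 7.32, 8.04 and 8.0 without and 6.68 with Aph. The fertilized groups stood far apart and every Aph+ array was above every other array of the series. The difference in fertilized embryos was 3.89 ± 0.37 (SE, adjusted p = 3.51e-05, 14.8-fold), and that in SCNT embryos was -1.11 ± 0.53 (adjusted p = 0.156). A second probe of Ercc5 gave 2.21 and -0.82.

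Xpa encodes the scaffold that checks the damage and positions the nucleases. Xpa stood at 6.55, 6.24 and 6.34 on the fertilized Aph- arrays and at 9.85, 9.08 and 9.09 on the Aph+ arrays. On the SCNT Aph- arrays it was 6.77, 6.94 and 7.03, and on the SCNT Aph+ array 8.17. Both kinds of embryo were thus higher with Aph, by 2.97 ± 0.26 after fertilization (adjusted p = 2.3e-05, 7.82-fold) and by 1.26 ± 0.37 after SCNT (adjusted p = 0.0301). The cumulus arrays read 7.84 and 7.22. The SCNT call was lost without fertilized Aph- replicate 3 or any 1 SCNT Aph- array, at adjusted p = 0.0501 to 0.0694.

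Ercc1 encodes the partner of the nuclease that cuts on the 5′ side. It was 6.58, 5.83 and 6.17 on the fertilized Aph- arrays and 6.96, 8.29 and 8.28 on the Aph+ arrays, a rise of 1.65 ± 0.37 (adjusted p = 0.00553, 3.14-fold). On the SCNT arrays it was 6.24, 6.21 and 5.70 without Aph and 5.94 with Aph, a difference of -0.12. The SCNT Aph+ value counted as not detected, with a detection p of 0.010025 just over the cut of 0.01. Ercc4, the nuclease that pairs with it and a gene outside the 43, rose by 3.74 ± 0.36 in fertilized embryos (adjusted p = 3.72e-05, 13.4-fold).

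The damage sensors went in different directions. Ddb2, the subunit that recognizes ultraviolet lesions, was 6.06, 5.67 and 6.10 on the fertilized Aph- arrays and 6.33, 8.01 and 7.71 on the Aph+ arrays, with Aph+ replicate 1 close to the Aph- arrays. It rose by 1.40 ± 0.40 (adjusted p = 0.0184), and the call was lost without fertilized Aph- replicate 2 or without Aph+ replicate 2 or 3 (adjusted p = 0.0530 to 0.0679). For this difference 2 other Ddb2 probes, detected on the oocyte array alone, gave 0.01 and -0.07. The oocyte value of Ddb2 was 9.25 on the probe used, so that the fertilized Aph+ embryos lay between the oocyte and the Aph- embryos. Xpc, which opens the helix at distorting lesions, was 6.58, 6.36 and 6.26 without Aph. With Aph it was 5.80 on fertilized replicate 1 and was not detected on the other 2 arrays, a fall of 1.66 ± 0.41 on the log2 scale (adjusted p = 0.00904). Ddb1, the partner of Ddb2 in a ubiquitin ligase, read 8.17, 8.65 and 8.39 without and 8.59, 7.09 and 6.71 with Aph in fertilized embryos, and 8.31, 8.17 and 8.60 without and 9.78 with Aph after SCNT. Neither difference passed the test (adjusted p = 0.0956 and 0.107). Ercc3, the helicase that unwinds the helix at the lesion and at promoters, kept values between 10.62 and 11.63 on all 10 embryo arrays. Its Aph differences of -0.11 ± 0.25 and -0.71 ± 0.35 did not pass the test. A second Ercc3 probe gave -0.28 and -1.91 and was not detected on the SCNT Aph+ array.

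**Figure D3:**
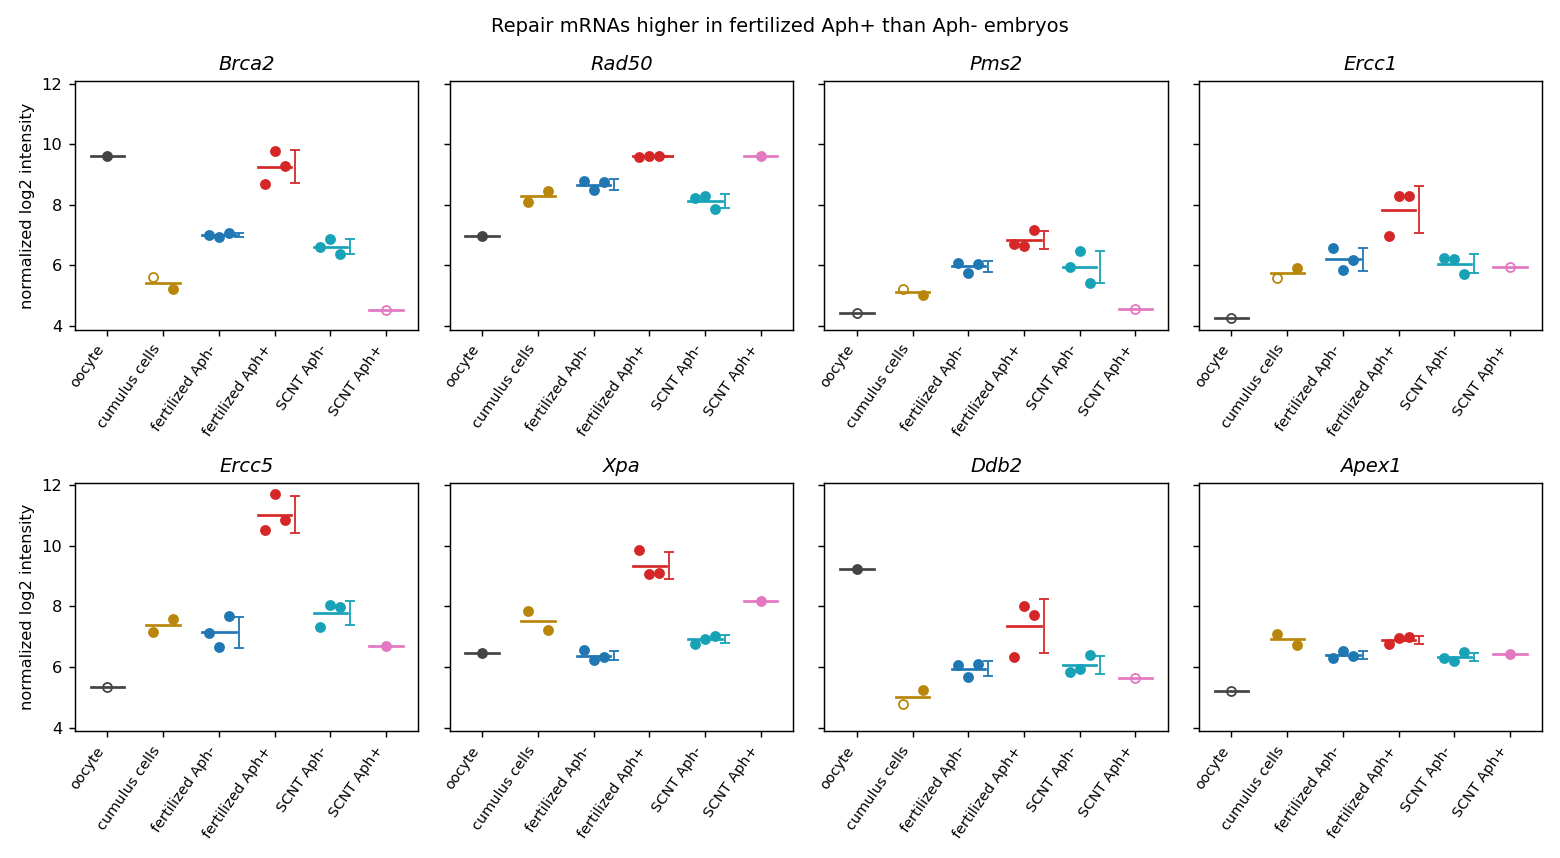
Normalized log2 intensity on each array (points) of the 8 repair genes that were higher in fertilized Aph+ than Aph- embryos, with a horizontal line at each group mean and a bracket of 1 SD on either side for groups of 3 arrays; open points were not detected. The fertilized Aph+ points stand above the fertilized Aph- points in each panel, and the SCNT Aph+ point is high for Rad50 and Xpa and open for Brca2, Pms2, Ercc1 and Ddb2.

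Among the genes of homologous recombination 2 of 12 tested rose and 2 fell in fertilized embryos, with a median of -0.43. Of all genes 19.1% rose and 25.1% fell there. In SCNT embryos 1 of the 12 rose and 5 fell, with a median of -0.85, against 13.7% and 14.7% of all genes. Brca2, which loads the recombinase onto resected DNA, gave the widest contrast between the 2 kinds of embryo among these 12 genes. Its level was 7.0, 6.94 and 7.05 on the fertilized Aph- arrays, 8.70, 9.78 and 9.29 on the Aph+ arrays, and 9.62 on the oocyte array. After SCNT it was 6.61, 6.87 and 6.38 without Aph, and the probe was not detected on the Aph+ array (4.51). Of the fertilized Aph+ arrays replicate 2 stood above the oocyte array and replicates 1 and 3 below it, and all 3 stood above every Aph- embryo array. The rise in fertilized embryos was 2.26 ± 0.28 (adjusted p = 0.00016, 4.78-fold) and the fall after SCNT was at least 1.57-fold (adjusted p = 0.00338), a call lost without background correction (adjusted p = 0.104). For a group with no detected array the fold is such a bound, taken against the lowest signal among detected probes or the probe's own value, whichever was higher. A second Brca2 probe gave 2.67 and -0.90. The 2 cumulus arrays read 5.62 (not detected) and 5.22.

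The MRN complex, which senses broken ends and starts their resection, did not move as a unit. Rad50, its ATP-binding arm, was 8.77, 8.48 and 8.76 on the fertilized Aph- arrays and 9.58, 9.60 and 9.61 on the Aph+ arrays. On the SCNT arrays it was 8.22, 8.28 and 7.85 without and 9.61 with Aph. All 4 Aph+ arrays lay within a narrow band above the 6 Aph- arrays, and the oocyte array read 6.96. The rise was 0.93 ± 0.19 in fertilized embryos (adjusted p = 0.00365) and 1.5 ± 0.27 after SCNT (adjusted p = 0.00306). A second Rad50 probe, detected on 4 arrays, gave 0.03 and 1.94, and the call in fertilized embryos was lost when all kept probes were averaged. Mre11a, the nuclease, was 9.30, 8.35 and 8.55 without Aph in fertilized embryos. With Aph it was 7.33 on replicate 1 and was not detected on replicates 2 and 3 (4.32 and 4.98), a fall of 3.19 ± 0.64 on the log2 scale (adjusted p = 0.00298) to which 1 detected array of 3 contributed, so that no fold is given. After SCNT it was 8.76, 9.14 and 8.86 without and 8.36 with Aph, a difference of -0.56 ± 0.91 (adjusted p = 0.732). A second Mre11a probe gave -2.33 and 0.21, and another, detected on 2 arrays, gave -0.23 and -0.12. Nbn, the other member, was detected on 1 array only.

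Rad54l and Blm passed the test in the SCNT comparison, with its 1 Aph+ array, and not in the fertilized one. Rad54l, which drives strand invasion, was 9.16, 9.22 and 8.89 against 8.26, 8.55 and 8.26 in fertilized embryos and 9.34, 8.32 and 8.62 against 6.02 in SCNT embryos. The SCNT difference was -2.75 ± 0.48 (adjusted p = 0.0023, 6.71-fold), and the fertilized difference of -0.73 ± 0.34 did not pass the test (adjusted p = 0.106), though its groups did not overlap. Blm, the helicase that dissolves joined chromosomes, was 9.88, 10.42 and 10.12 without Aph after SCNT and 7.72 with it, and a second probe of the gene gave nearly the same difference (-2.49 against -2.42 ± 0.42, adjusted p = 0.0023). In fertilized embryos Blm was 10.49, 9.44 and 10.13 without and 9.76, 9.33 and 9.83 with Aph, and the groups overlapped. The cumulus arrays read 5.32 (not detected) and 6.45 for Rad54l and 7.78 and 8.21 for Blm, near the SCNT Aph+ array for both.

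Bard1, the partner of Brca1, was detected on every Aph- embryo array (5.27 to 5.71) and on none of the 4 Aph+ arrays. Its difference was -0.48 ± 0.24 in fertilized (adjusted p = 0.133) and -1.22 ± 0.34 in SCNT embryos (adjusted p = 0.0241), the latter lost without SCNT Aph- replicate 3 (adjusted p = 0.0604). Xrcc3, a paralogue of the recombinase, showed the same detection pattern, at 5.09 to 5.91 on the 6 Aph- arrays, with -0.90 ± 0.25 (adjusted p = 0.0144) and -1.14 ± 0.35 (adjusted p = 0.0341). For both the bound on the fold was under 1, so no fold is given. The Xrcc3 call after SCNT was lost without any 1 of the fertilized Aph- arrays (adjusted p = 0.0539 to 0.056) and the one after fertilization was lost under 75th percentile scaling. Brca1, which directs broken ends into recombination, read 6.68, 7.08 and 4.67 on the fertilized Aph+ arrays, the last not detected, against 6.36, 7.08 and 6.48 without Aph, and it was called in neither comparison. Rad52, which anneals resected strands, was not called either (-0.87 ± 0.37 and -1.32 ± 0.52). Rad51c was detected on the oocyte array alone, and Exo1, a resection nuclease, on 2 fertilized Aph- arrays alone.

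Of the 4 tested genes of the Fanconi anaemia pathway 0 rose in either kind of embryo (limma, 0 also at an unadjusted p under 0.05). In fertilized embryos 2 of the 4 fell, with a median of -1.40, and in SCNT embryos 3 of the 4 fell, with a median of -1.47. Of all genes 19.1% rose and 25.1% fell in fertilized embryos, and 13.7% rose and 14.7% fell in SCNT embryos. Fancd2 and Fanci form the clamp that is ubiquitinated on damaged chromatin, and Fancl is the ligase that does so. Fancl was 7.0, 6.89 and 6.98 on the fertilized Aph- arrays and 6.86, 6.92 and 6.03 on the SCNT Aph- arrays, and was detected on none of the 4 Aph+ arrays (4.69, 4.31, 4.28 and 5.17). It fell at least 2.13-fold in fertilized embryos (-2.53 ± 0.26, adjusted p = 5.15e-05) and at least 1.56-fold in SCNT embryos (-1.43 ± 0.37, adjusted p = 0.0167), the latter not called under 4 of 9 other settings. Fanci was 5.40 to 5.70 and 5.49 to 6.23 on the 2 sets of Aph- arrays and was detected on no Aph+ array, with differences of -1.30 ± 0.22 (adjusted p = 0.000986) and -1.52 ± 0.31 (adjusted p = 0.00505) and, as for Bard1 and Xrcc3, a bound on the fold under 1. Fancd2 was 8.34, 8.49 and 8.58 on the SCNT Aph- arrays and not detected with Aph (4.28), a fall of at least 5.67-fold (adjusted p = 0.00669). In fertilized embryos Fancd2 was 7.71, 7.54 and 7.45 without and 6.42, 7.46 and 4.31 with Aph. The 3 Aph+ arrays ranged from the Aph- level to not detected, and the difference of -1.5 ± 0.63 did not pass the test (adjusted p = 0.0801). Fancc, a member of the core complex, was 7.07, 5.92 and 4.17 (not detected) on the fertilized Aph+ arrays against 5.32, 5.39 and 5.35 without Aph and was not called.

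Of the 3 mismatch repair genes Msh6 fell in both kinds of embryo. Msh6, which recognizes base mismatches, was 11.29, 11.54 and 11.57 without and 9.89, 10.86 and 10.08 with Aph after fertilization, and 11.13, 11.24 and 11.26 without and 10.06 with Aph after SCNT. No Aph+ array reached an Aph- array, the differences were -1.19 ± 0.27 (adjusted p = 0.00547) and -1.14 ± 0.38 (adjusted p = 0.0481), and a second probe gave -1.18 and -1.35. The SCNT call was lost without any 1 fertilized Aph- or SCNT Aph- array (adjusted p = 0.0679 to 0.0947). Pms2, the endonuclease that nicks the new strand, was 6.07, 5.76 and 6.05 against 6.70, 6.65 and 7.16 in fertilized embryos. It was 5.94, 6.46 and 5.42 on the SCNT Aph- arrays and not detected with Aph (4.55). It rose by 0.88 ± 0.28 after fertilization (adjusted p = 0.0281) and its difference was -1.39 ± 0.39 after SCNT (adjusted p = 0.0248), where the bound on the fold was under 1. The first call was lost without any 1 fertilized Aph- array or without Aph+ replicate 3 (adjusted p = 0.0563 to 0.0964), and the second without SCNT Aph- replicate 1 (adjusted p = 0.0514). Msh3, which recognizes small loops, was detected on 1 fertilized Aph+ array alone.

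**Figure D4:**
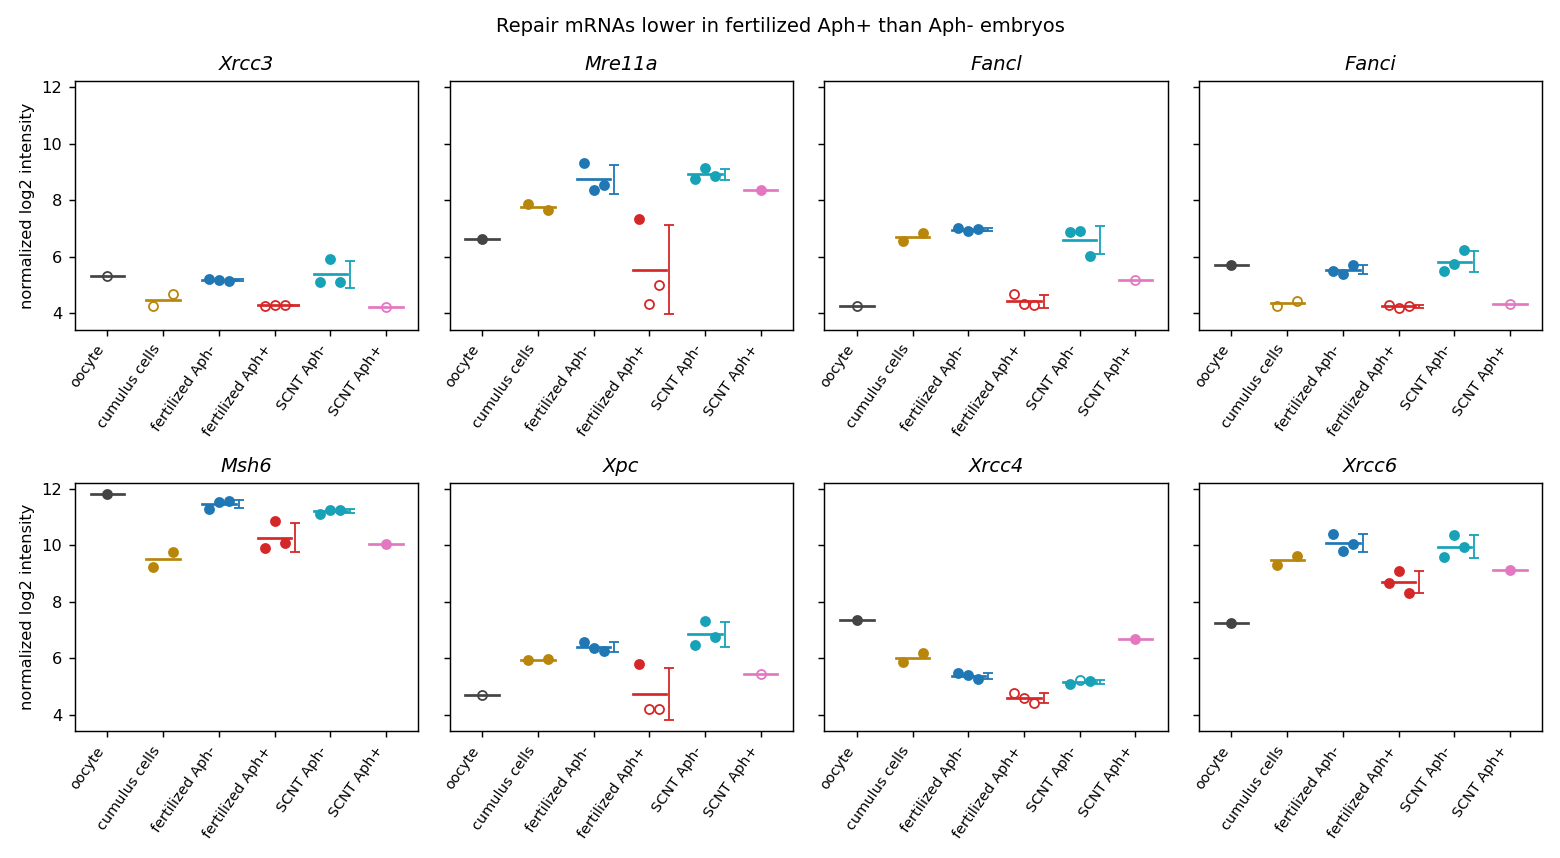
Normalized log2 intensity on each array (points) of the 8 repair genes that were lower in fertilized Aph+ than Aph- embryos, drawn as in the panels of raised genes (line at the mean, bracket of 1 SD on either side, open points not detected). All fertilized Aph+ points are open for Xrcc3, Fancl, Fanci and Xrcc4, and for Mre11a and Xpc replicate 1 is detected and replicates 2 and 3 are not.

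In base excision and single-strand break repair 1 of 6 tested genes rose and 0 fell in fertilized embryos (median -0.49), and 0 rose and 2 fell in SCNT embryos (median -1.61). At an unadjusted p under 0.05 limma gave 1 and 2 in fertilized and 0 and 4 in SCNT embryos. Of all genes 19.1% rose and 25.1% fell in fertilized embryos at adjusted p under 0.05, and 13.7% rose and 14.7% fell in SCNT embryos. Ung, which removes uracil from DNA, was 11.21, 11.53 and 11.14 without and 11.86, 11.49 and 11.58 with Aph after fertilization, where the groups overlapped (0.35 ± 0.25, adjusted p = 0.287). After SCNT it was 11.26, 10.91 and 11.00 without and 8.73 with Aph, a fall of 2.32 ± 0.35 on the log2 scale (adjusted p = 0.0011, 5-fold), lost when all kept probes were averaged (adjusted p = 0.082) and under no other alternative run. The cumulus arrays read 7.97 and 8.80 for Ung. Xrcc1, the scaffold of single-strand break repair, was 7.30, 7.68 and 7.48 on the SCNT Aph- arrays and not detected on the Aph+ array (5.43), a fall of at least 2.87-fold (adjusted p = 0.0238). That call was lost without SCNT Aph- replicate 2 or 3 (adjusted p = 0.0584 and 0.0511). In fertilized embryos Xrcc1 was 7.20, 7.62 and 7.64 without and 5.99, 6.38 and 7.81 with Aph and was not called. Apex1, the endonuclease that cuts at sites without a base, rose by 0.52 ± 0.19 after fertilization (adjusted p = 0.0458). This call held under 2 of 9 other settings and was lost without any 1 fertilized Aph- or SCNT Aph- array or without Aph+ replicate 2 or 3 (adjusted p = 0.0558 to 0.135), and a second probe gave -0.10. Parp1, which marks nicks with poly(ADP-ribose), was 11.16, 11.13 and 11.04 without and 8.24, 10.22 and 10.36 with Aph in fertilized embryos. The groups did not overlap, and with Aph+ replicate 1 far below the other 2 arrays the difference of -1.5 ± 0.60 did not pass the test (adjusted p = 0.068). Lig3 and Polb, the ligase and polymerase of this pathway, were not called in either kind of embryo.

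Of the 3 tested end-joining genes 2 fell and 0 rose in fertilized embryos, whereas 1 rose and 0 fell after SCNT (limma, with the same counts at an unadjusted p under 0.05). Of all genes 25.1% fell and 19.1% rose in fertilized embryos, and 13.7% rose and 14.7% fell after SCNT. Xrcc4, the partner of the ligase Lig4, was 5.46, 5.41 and 5.27 on the fertilized Aph- arrays and was not detected on the Aph+ arrays (4.79, 4.60 and 4.42). On the SCNT arrays it was 5.08, 5.23 and 5.21 without Aph, the second not detected, and 6.68 with Aph. The fertilized Aph+ values were thus below the Aph- values and the SCNT Aph+ value above them, with differences of -0.78 ± 0.18 (adjusted p = 0.00628, the bound on the fold under 1) and 1.5 ± 0.25 (adjusted p = 0.002, 2.84-fold). The former was lost under 75th percentile scaling (adjusted p = 0.181). The cumulus arrays read 5.87 and 6.19 and the oocyte array 7.37. Xrcc6, the Ku70 subunit of the ring that binds broken ends, was 10.42, 9.79 and 10.05 without and 8.68, 9.11 and 8.31 with Aph in fertilized embryos, a fall of 1.39 ± 0.29 on the log2 scale (adjusted p = 0.00358, 2.62-fold), and a second probe gave -1.92. After SCNT Xrcc6 was 9.58, 10.37 and 9.94 without and 9.12 with Aph (-0.84 ± 0.41, adjusted p = 0.163). Lig4 was detected on the oocyte array alone.

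The difference between the 2 Aph effects was tested directly, as the effect in SCNT minus that in fertilized embryos. It was called for 2 of 35 repair genes as higher and for 7 as lower, against 13.8% and 12.4% of all genes, with a median of -0.42 for the repair genes and 0.01 for all genes. The 7 were Brca2, Rad54l, Blm, Pms2, Ercc5, Xpa and Ung, and the 2 were Ddb1 and Xrcc4. Of the Fanconi anaemia genes 0 of 4 were called in this test (limma, 2 at an unadjusted p under 0.05, adjusted p = 0.101 to 0.721). Brca2 and Pms2 were not detected on the SCNT Aph+ array and Xrcc4 on no fertilized Aph+ array, so their differences depend on the level of undetected probes. The calls of Brca2, Blm, Ercc5, Ung and Xrcc4 held under every alternative run. That of Pms2 was lost under 75th percentile scaling (adjusted p = 0.0545) and that of Xpa with the authors' deposited values (adjusted p = 0.0559). That of Rad54l was lost under that scaling (adjusted p = 0.088), without background correction (adjusted p = 0.0643) and without any 1 fertilized Aph- array or without SCNT Aph- replicate 1 or 3 (adjusted p = 0.0502 to 0.0678). That of Ddb1 was lost without any 1 array but fertilized Aph+ replicate 1 or 3 (adjusted p = 0.0559 to 0.0823) and under 3 other settings (adjusted p = 0.0559 to 0.0882). All of these values rest on the SCNT Aph+ array, whose level stood within 1 unit of the mean of the cumulus arrays for Brca2 (4.51 and 5.42), Rad54l (6.02 and 5.88), Blm (7.72 and 8.0), Pms2 (4.55 and 5.12), Ercc5 (6.68 and 7.37), Xpa (8.17 and 7.53), Ung (8.73 and 8.38) and Xrcc4 (6.68 and 6.03), and 2.81 above it for Ddb1. The share of all genes within 1 unit was not counted. The median difference between this array and cumulus cells was -0.04 for the 35 repair genes and -0.10 for all genes. Such closeness was thus not shown to be particular to the genes called here. Compared as a whole with cumulus cells, the SCNT Aph+ array had 2 of 35 repair genes higher (Rad50, 1.34 ± 0.29, and Ddb1, 2.81 ± 0.63) and 1 lower (Fancl). Among all genes 4.39% were higher and 2.6% lower. None of these 3 calls held without cumulus replicate 1 (adjusted p = 0.0576, 0.0661 and 0.0645). That of Ddb1 was also lost without fertilized Aph- replicate 3 or cumulus replicate 2 (up to 0.083), and that of Fancl without cumulus replicate 2, any 1 fertilized Aph- array or SCNT Aph- replicate 1 or 2 (up to 0.131).

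The second question was which repair mRNAs the oocyte held and which the embryo gained. Each embryo comparison below shares the same oocyte array, so that the counts are not independent of each other, and a call also required a 2-fold difference. Above the oocyte stood 11 of 35 repair genes in fertilized Aph- embryos (23% of all genes), 11 in SCNT Aph- embryos (23.2%), 8 with Aph after fertilization (18.4%) and 5 in the SCNT Aph+ pool (16.8%). Below it stood 8 in fertilized Aph- embryos (20.6% of all genes), 8 after SCNT without Aph (21%), 11 with Aph after fertilization (21.9%) and 13 in the SCNT Aph+ pool (16.4%). Under 75th percentile scaling the last counts were 7 and 9. Lig4 and Rad51c, detected on the oocyte array alone, are among the genes counted below it. With detection required on at least 3 arrays, 30 repair genes were tested. Below the oocyte then stood 6, 6, 9 and 11 of them, in the same order of groups. Of all 7915 genes tested that way 1628, 1657, 1772 and 1216 stood below it. The oocyte was the group with the highest mean for 13 of the 35 genes, SCNT Aph- for 8, fertilized Aph- for 6, fertilized Aph+ for 5, SCNT Aph+ for 2 and cumulus cells for 1. The 13 include Lig4 and Rad51c. The oocyte, with its 1 array, also had the lowest mean for 12 of the 35 genes. SCNT Aph+ and cumulus cells had the lowest for 9 each, fertilized Aph+ for 3, fertilized Aph- for 2 and SCNT Aph- for 0. Neither ranking was counted over all genes.

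Fancc, Ddb2, Lig4, Rad51c and Bard1 were lower in all 4 embryo groups than in the oocyte, and Brca1, Brca2 and Xrcc4 in 3 of them. Fancc was 9.55 on the oocyte array, 5.32 to 5.39 on the fertilized Aph- arrays and 4.78 to 5.73 on the SCNT Aph- arrays, and the falls were 18.3-fold (adjusted p = 0.0028) and 17.8-fold (adjusted p = 0.00291). With Aph the fall was 14.2-fold after fertilization (adjusted p = 0.00495) and at least 12-fold after SCNT (adjusted p = 0.00622). Ddb2 stood at 9.25 in the oocyte and fell 9.85-fold in fertilized Aph- embryos, 3.72-fold in fertilized Aph+ embryos and at least 9.72-fold on the SCNT Aph+ array, and 2 of its other probes were detected on the oocyte array alone. Brca1 was 9.35 in the oocyte and 5.44 to 7.08 on the Aph- embryo arrays. It fell 6.55-fold in fertilized Aph- embryos (adjusted p = 0.0208), a call lost without fertilized Aph- replicate 1 (adjusted p = 0.0515), and 11.6-fold in SCNT Aph- embryos (adjusted p = 0.00518). In fertilized Aph+ embryos, with 2 of 3 arrays detected, the Brca1 difference was -3.21 (adjusted p = 0.00947), whereas that of the SCNT Aph+ pool, -2.66, did not pass the test (adjusted p = 0.0665). Lig4 and Rad51c were detected on the oocyte array alone and so passed the detection filter through it alone. Their lower values in the embryo groups were thus built in by the filter and are no separate evidence of a fall. In fertilized Aph- embryos Lig4 was at least 3.84-fold lower and Rad51c at least 1.89-fold lower. The sign of Rad51c on the SCNT Aph+ array turned under 75th percentile scaling. Bard1 was 7.49 in the oocyte and 4.31 to 5.71 on the embryo arrays. Xrcc4 was 7.37 in the oocyte, with means of 5.38, 4.60 (not detected) and 5.17 in the fertilized Aph-, fertilized Aph+ and SCNT Aph- groups. On the SCNT Aph+ array Xrcc4 read 6.68 and was not called.

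Rad54l, Ung and Blm were also high in the oocyte, and among the embryo arrays each was lowest on the SCNT Aph+ array. Rad54l was 9.63 in the oocyte and in the reported fit was called only on the SCNT Aph+ array, where it was 12.3-fold lower (adjusted p = 0.0013). Under 75th percentile scaling it was also called lower in fertilized Aph+ embryos (-1.50 on the log2 scale). Ung was 12.04 in the oocyte and 9.91-fold lower on the SCNT Aph+ array (adjusted p = 0.000425), with no call in the other embryo groups in the reported fit. With the mean of all kept probes Ung was also called lower in fertilized and SCNT Aph- embryos (-1.40 and -1.48 on the log2 scale). A second Ung probe read 8.41 in the oocyte and 5.43, 6.31 and 5.32 as means of the fertilized Aph-, fertilized Aph+ and SCNT Aph- groups. Blm, at 11.14, was 10.8-fold lower on the SCNT Aph+ array and 2.84-fold lower in fertilized Aph+ embryos (adjusted p = 0.000899 and 0.0158). Under 75th percentile scaling Blm was also called lower in fertilized and SCNT Aph- embryos (-1.45 and -1.35 on the log2 scale). Brca2 fell 6.17-fold in fertilized Aph- and 8.03-fold in SCNT Aph- embryos (adjusted p = 0.000432 and 0.000178) and was not called in fertilized Aph+ embryos.

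In Aph- embryos the largest rise was that of Ercc3, the helicase of the excision complex, which read 7.44 on the oocyte array and at least 10.62 on every embryo array. It rose 14.0-fold and 17.7-fold in fertilized and SCNT Aph- embryos and 13.0-fold and 10.8-fold with Aph (adjusted p = 1.32e-05 to 0.000363). The second Ercc3 probe read 4.41 in the oocyte and 6.96, 6.69, 7.01 and 5.10 (not detected) as means of the fertilized Aph-, fertilized Aph+, SCNT Aph- and SCNT Aph+ groups. Rad50, Apex1 and Xrcc6 also rose in all 4 embryo groups on the probes used, of which that of Apex1 was not detected in the oocyte. The second Apex1 probe read 4.32 in the oocyte and 4.91, 4.81, 4.63 and 4.28 as means of the fertilized Aph-, fertilized Aph+, SCNT Aph- and SCNT Aph+ groups. Among the oocyte and embryo arrays it was detected on 2 fertilized Aph- arrays alone, so it showed no rise on the SCNT Aph+ array. Xrcc6 read 7.26 in the oocyte and rose 7.10-fold and 6.51-fold in Aph- embryos, and 2.71-fold and 3.63-fold with Aph. Rad52, Fancl, Xpc and Parp1 rose in both Aph- groups and were called in neither Aph+ group, and Pms2, Ercc1 and Ercc5 rose in both Aph- groups and in fertilized Aph+ embryos. The Ercc5 probe used was not detected in the oocyte. On that probe Ercc5 rose at least 2.78-fold in fertilized Aph- embryos (adjusted p = 0.0185) and at least 4.33-fold in SCNT Aph- embryos (adjusted p = 0.00367). In fertilized Aph+ embryos it rose at least 41.1-fold (adjusted p = 2.33e-05). The second Ercc5 probe, detected on all 13 arrays, gave smaller differences. It read 5.95 in the oocyte and 6.96, 9.17, 8.21 and 7.39 as means of the fertilized Aph-, fertilized Aph+, SCNT Aph- and SCNT Aph+ groups. The calls of Parp1 and Xpc in Aph- embryos had adjusted p = 0.0128 to 0.0383. That of Xpc in fertilized embryos was lost without any 1 fertilized Aph- or cumulus array or without SCNT Aph- replicate 3 (adjusted p = 0.0556 to 0.0844). That of Parp1 was lost without any 1 fertilized Aph- array in fertilized embryos and without any 1 fertilized or SCNT Aph- array in SCNT embryos (adjusted p = 0.0542 to 0.0782).

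**Figure D5:**
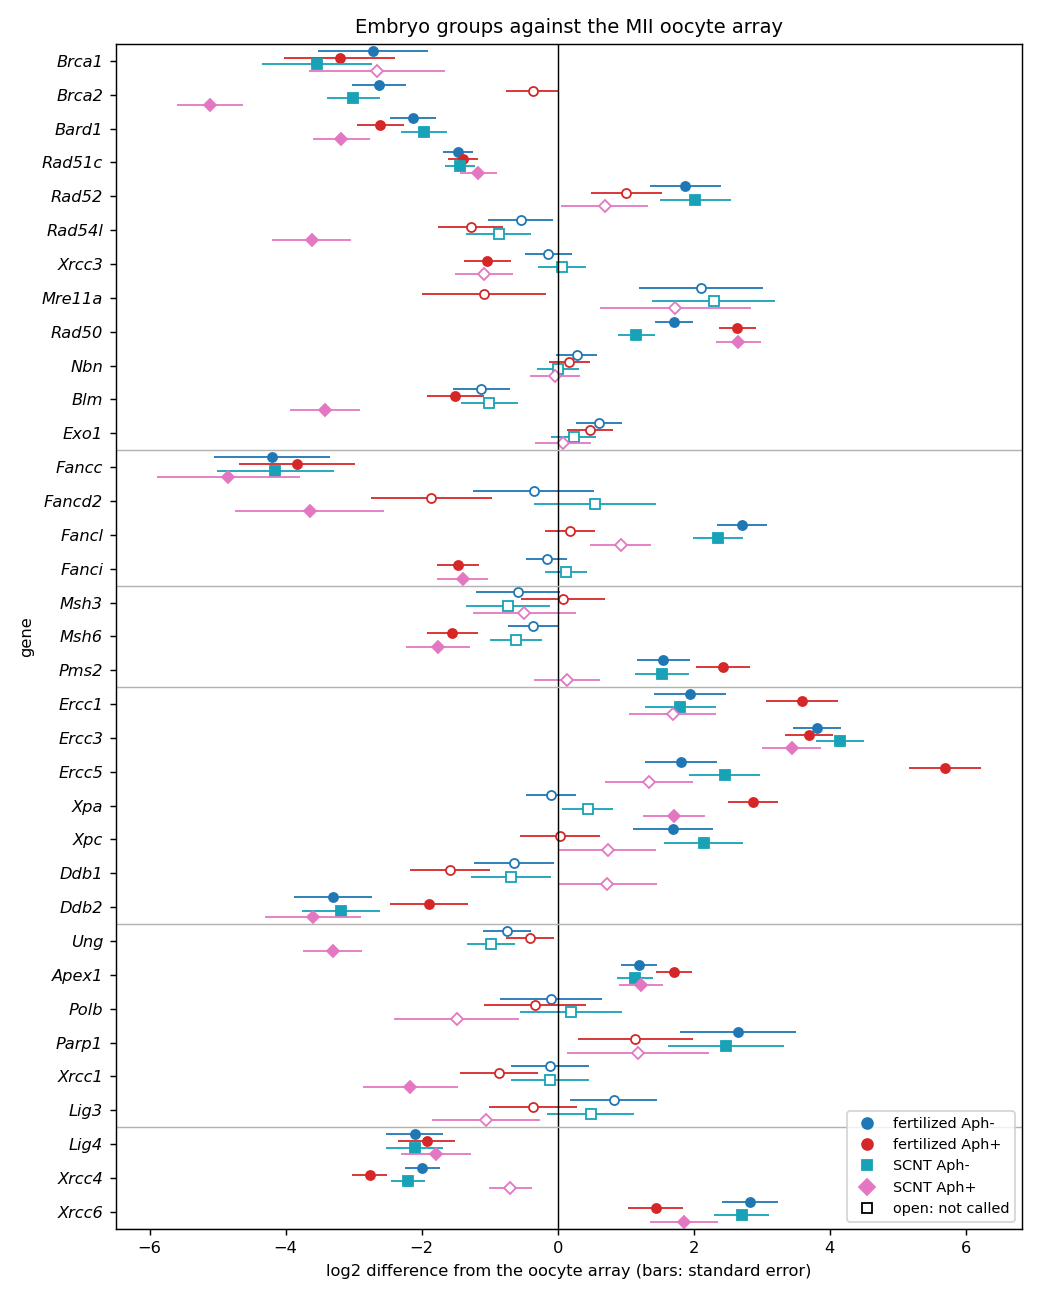
Log2 difference of each embryo group from the MII oocyte array for the 35 repair genes, with bars of 1 standard error; filled symbols passed adjusted p under 0.05 and a 2-fold difference. Fancc, Lig4 and Ddb2 lie left of 0 and Ercc3, Rad50, Apex1 and Xrcc6 right of 0 in all 4 groups, and the fertilized Aph+ symbol of Ercc5 is furthest right.

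Cumulus cells, whose nuclei entered the SCNT embryos, were lower than the oocyte for 15 of 35 repair genes and higher for 7, against 19.6% and 22% of all genes, with a median of -0.86 for the repair genes and 0.08 for all genes. Under 75th percentile scaling the counts were 11 lower and 10 higher. With detection required on at least 3 arrays, 13 of 30 were lower and 7 higher, against 1535 and 2053 of 7915 genes. Of the 4 tested Fanconi anaemia genes 3 were lower (Fancc, Fancd2 and Fanci) and Fancl was higher. Of the 12 recombination genes 6 were lower, among them Blm (8.86-fold), which was detected on both cumulus arrays. Brca1, Brca2 and Rad54l were detected on cumulus replicate 2 alone, with differences of -4.21, -4.20 and -3.75 on the log2 scale. Ung was 12.6-fold lower (adjusted p = 5.68e-05). The higher genes were Rad52, Rad50, Fancl, Ercc3, Ercc5, Apex1 and Xrcc6, of which Ercc3 was 6.23-fold and Xrcc6 4.63-fold higher. The SCNT Aph- embryos, which held a cumulus nucleus and had passed through replication, were not tested against cumulus cells. Rad54l read 5.32 and 6.45 on the cumulus arrays, 8.32 to 9.34 in these embryos and 9.63 in the oocyte. Fancd2 read 4.43 (not detected) and 5.03, 8.34 to 8.58, and 7.92 in the same order. For Rad52 (6.18 and 6.35 against 6.22 to 6.67) and Fancl (6.55 and 6.85 against 6.03 to 6.92) cumulus and embryo values overlapped. How many of the 35 genes differed in this way was not counted.

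A further 77 genes of the same pathways and of translesion synthesis, in which special polymerases copy past a lesion, gave 46 tested genes. In fertilized embryos 8 of the 46 were higher (19.1% of all genes) and 15 lower (25.1%) with Aph, with a median of -0.26. The largest rises were those of Ercc4, of Psmc3ip, which aids strand exchange in meiosis (2.41 ± 0.26, adjusted p = 7.63e-05, 5.31-fold), and of Trp53bp1, which steers breaks to end joining (2.11 ± 0.22, adjusted p = 5.58e-05, 4.33-fold). The largest falls were those of Ercc8, a sensor of stalled transcription (at least 2.41-fold, adjusted p = 7.62e-06), of Smug1, a second uracil glycosylase (at least 2.73-fold, adjusted p = 1.24e-05), and of Cul4a, the cullin of the Ddb1 ligase (6.73-fold, adjusted p = 0.0311). The Cul4a call was lost without fertilized Aph- replicate 2 or 3 or Aph+ replicate 2 or 3 (adjusted p = 0.0668 to 0.104). In SCNT embryos 2 of the 46 were higher (13.7% of all genes) and 12 lower (14.7%), with a median of -0.70. The largest falls there were those of Gtf2h4, a subunit of the Ercc3 helicase complex (at least 4.59-fold, adjusted p = 0.00113), of Rpa2, which coats single-stranded DNA (at least 2.93-fold, adjusted p = 0.00866), and of Fen1, the flap nuclease of replication and base excision repair (8.26-fold, adjusted p = 0.000349). Trp53bp1 was also higher after SCNT (1.04 ± 0.31, adjusted p = 0.0322), a call lost without fertilized Aph- replicate 3 or SCNT Aph- replicate 1 or 2 (adjusted p = 0.0535 to 0.0709). Neil3, a glycosylase, passed the test as higher while not detected in either group. Between SCNT and fertilized Aph- embryos 0 of the 46 were called (limma, 1 higher and 1 lower at an unadjusted p under 0.05). Without Aph 13 of the 46 stood above the oocyte after fertilization (23% of all genes) and 12 after SCNT (23.2%), and 14 (20.6%) and 15 (21%) stood below it. With Aph 8 (18.4%) and 5 (16.8%) stood above it, and 13 (21.9%) and 16 (16.4%) below it. Parp2, a relative of Parp1, was among the 3 largest rises in each of these 4 groups, and Msh4, a meiotic mismatch protein, among the 3 largest falls. Cumulus cells had 4 of the 46 higher (22% of all genes) and 19 lower (19.6%) than the oocyte.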

How the data were processed

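RNA of 13 samples had been amplified and hybridised to 1-colour Illumina mouse BeadChips. The labels and the text of the study differ on the amplification kit and the chip version. The deposited file held, per the file headers, the raw intensity of 25697 probes on each array with a detection p-value computed by the authors from the chip's negative controls (BeadStudio 3.2 in the submitters' notes). A deposited second table held log2 values that the authors had background-adjusted and quantile normalized, with RMA and lumi named in the same notes. Array number limits the precision.

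Raw intensity was normalized here with neqc in limma 3.58.1 (R 4.3.3): normexp background correction (the negative controls' mean and variance were inferred from the deposited detection p-values), an offset of 16, log2 and quantile normalization. Probes were kept where they had 1 gene symbol (1719 had no symbol) and were detected, at p under 0.01, on 1 array or more. The brightest kept probe stood for each gene, which left 9787 of 16593 genes. A linear model of the 6 groups (7 residual degrees of freedom) gave the contrasts, with moderated limma tests and Benjamini-Hochberg adjustment over all genes. A call was an adjusted p under 0.05 and, against the oocyte, a 2-fold difference. The procedure was tested on simulated data. Other normalizations, other filters and probe rules, other designs and each replicate left out were tried as alternatives.

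All 43 repair genes could be named. Of the further genes those with the 3 largest rises and the 3 largest falls per comparison could be named. The members, the lists and the tests were chosen with earlier results of these data known. Promoters came from RefSeq.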

Additional observations from a re-analysis of the deposited data

Results flagged for a closer look

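For 9 of 35 repair genes (2 higher and 7 lower, against 13.8% and 12.4% of all genes) the effect of Aph differed between SCNT and fertilized embryos by a test of the difference itself (limma, Benjamini-Hochberg over all genes). On the log2 scale, as the SCNT effect minus the fertilized effect, it was -4.99 ± 0.65 (SE) for Ercc5 (adjusted p = 0.000692), -4.36 ± 0.48 for Brca2 (adjusted p = 0.000319), -2.67 ± 0.43 for Ung (adjusted p = 0.00201), -2.27 ± 0.48 for Pms2 (adjusted p = 0.00738), -2.04 ± 0.52 for Blm (adjusted p = 0.0169), -2.01 ± 0.58 for Rad54l (adjusted p = 0.0304) and -1.70 ± 0.45 for Xpa (adjusted p = 0.0213). It was 2.28 ± 0.31 for Xrcc4 (adjusted p = 0.000887) and 2.36 ± 0.73 for Ddb1 (adjusted p = 0.0387). Brca2, Pms2 and Xrcc4 had differences of opposite sign past the test in the 2 kinds of embryo. Brca2 and Pms2 were not detected on the SCNT Aph+ array and Xrcc4 on no fertilized Aph+ array. The fold was at least 1.57 for Brca2 after SCNT, and for Pms2 after SCNT and Xrcc4 after fertilization its bound was under 1. Both Pms2 calls were lost with 1 array left out, at adjusted p up to 0.0964 (without fertilized Aph- replicate 2) and 0.0514 (without SCNT Aph- replicate 1). Xpa was higher with Aph in both and differed in size. Ercc5 passed the test in fertilized embryos alone, Rad54l, Blm and Ung in SCNT embryos alone, and Ddb1 in neither. The SCNT effect rests on 1 array, on which 9 of 10 cumulus markers were detected. The part of those cells' RNA in these values was not tested.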

How the results depend on the processing

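The 189 called differences of single genes kept their sign under every alternative run, apart from Rad51c in SCNT Aph+ minus oocyte, which was 0.24 (adjusted p = 0.551) under 75th percentile scaling. They stayed called in 174 cases with the authors' deposited log2 values, in 161 under 75th percentile scaling and in 132 without background correction, and in 1980 of 2079 cases with 1 replicate left out. With 75th percentile scaling the median of all genes moved to 0.21 (fertilized Aph), 0.36 (SCNT Aph) and 0.74 (SCNT Aph+ minus oocyte).

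Counts of repair genes moved by over 1.5 times as follows. With the mean of all kept probes, 5 were higher with Aph in fertilized embryos, 3 were higher in SCNT Aph+ than in the oocyte and 4 had a higher SCNT effect. Without background correction, the counts against the oocyte were 5 higher and 5 lower (fertilized Aph-), 4 and 5 (SCNT Aph-), 5 and 6 (fertilized Aph+), 3 higher (SCNT Aph+) and 2 higher (cumulus). With the groups compared alone, 1 was higher in SCNT than in fertilized Aph- embryos, 3 were lower in fertilized Aph+ than in the oocyte and 1 had a higher SCNT effect; that fit has no residual degrees of freedom for SCNT Aph+ against the oocyte. With 75th percentile scaling 7 were lower with Aph in SCNT embryos. Between SCNT Aph+ and cumulus cells the counts were 0 and 0 under that scaling and with the groups alone, 1 and 0 with the deposited values, and 0 lower without background correction, with detection on 3 arrays or with a trended, robust prior.

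With each replicate left out in turn, repair genes higher and lower numbered 5 to 8 and 8 to 12 (fertilized Aph), 2 to 4 and 9 to 14 (SCNT Aph), 0 and 0 (SCNT against fertilized Aph-), 1 to 3 and 6 to 10 (difference of the Aph effects) and 0 to 2 and 0 to 2 (SCNT Aph+ against cumulus). Against the oocyte they numbered 9 to 12 and 8 to 9 (fertilized Aph-), 10 to 12 and 8 to 9 (SCNT Aph-), 8 to 9 and 10 to 12 (fertilized Aph+), 5 to 7 and 12 to 14 (SCNT Aph+) and 6 to 10 and 13 to 16 (cumulus).

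Arrays that share a label (untimed, 96 h, blastocyst) did not deviate together more than others (r = -0.246 to 0.146, against -0.210 to 0.249 between labels). This cannot show whether pools of the same label shared a culture, and the reported fit used no pairing. With the label as a replicate block, 6 repair genes were higher and 9 lower with Aph in fertilized embryos, 2 and 7 in SCNT embryos, 0 and 0 between the Aph- groups, and 1 and 7 had a higher and a lower SCNT effect. No block was fitted for the oocyte and cumulus comparisons. Probes below background give only bounds, and the Aph+ arrays were the dimmest of the embryo arrays.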
